A study of Mus musculus with 6 samples.

Results

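The genes described here are 9 genes of the ventral telencephalon and of the interneurons that arise there: the homeobox genes Dlx1, Dlx2, Dlx5 and Dlx6, the LIM homeobox gene Lhx6, the homeobox genes Nkx2-1 and Gsx2, and the neuropeptide genes Sst and Npy. They were chosen by symbol, and each of the 9 symbols matched 1 row of a count table of 53801 genes. The table came from RNA-seq of the whole brain of C57BL/6 mouse embryos at embryonic day 16.5. It held 3 Bahd1-KO embryos, homozygous for a knockout of Bahd1 (Bahd1-/-), and 3 Bahd1-WT embryos (Bahd1+/+), with 1 library per embryo. BAHD1 is a chromatin protein associated with gene repression and histone deacetylases. The labels give no treatment other than the knockout, and the comparison asks whether loss of BAHD1 changes brain gene expression before birth.

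In the embryonic forebrain, the ganglionic eminences of the ventral telencephalon generate the GABAergic neurons of the striatum and the interneurons that migrate into the cortex. GSX2 patterns progenitors of the lateral eminence, NKX2-1 specifies the medial eminence, and the DLX proteins act in nearly all GABAergic precursors, where DLX1 and DLX2 promote expression of Dlx5 and Dlx6. LHX6 acts downstream of NKX2-1 in cells that leave the medial eminence, many of which later produce somatostatin (Sst) or neuropeptide Y (Npy). Nkx2-1 is also a regulator of lung, thyroid and hypothalamus, and Sst and Npy are made by several other neuron types.

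The 4 Dlx members lie in 2 convergent pairs. Dlx1 (ENSMUSG00000041911, GRCm38 chr2:71528113-71533981, plus strand) and Dlx2 (ENSMUSG00000023391, chr2:71543408-71546754, minus strand) are 9.43 kb apart. Dlx6 (ENSMUSG00000029754, chr6:6863334-6868568, plus strand) and Dlx5 (ENSMUSG00000029755, chr6:6877805-6882085, minus strand) are 9.24 kb apart. The stretch of 90 coding bases below, in the homeobox and spanning exons 2 and 3 of each 3-exon transcript, shows how alike the 4 genes are. Capitals mark the 59 of 90 positions at which all 4 carry the same base, and each sequence reads 5′ to 3′ along the transcript.
Dlx1, chr2:71531106-71531156 and chr2:71532264-71532302, plus strand: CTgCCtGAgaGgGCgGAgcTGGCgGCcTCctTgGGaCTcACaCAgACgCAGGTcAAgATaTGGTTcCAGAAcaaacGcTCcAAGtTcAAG
Dlx2, chr2:71545384-71545434 and chr2:71544886-71544924, minus strand: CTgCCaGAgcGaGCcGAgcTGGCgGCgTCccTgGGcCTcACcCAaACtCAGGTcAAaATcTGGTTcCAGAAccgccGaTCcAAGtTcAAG
Dlx5, chr6:6879526-6879576 and chr6:6878450-6878488, minus strand: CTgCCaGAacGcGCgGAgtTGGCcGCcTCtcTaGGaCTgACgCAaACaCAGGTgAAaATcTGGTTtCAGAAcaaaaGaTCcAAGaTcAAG
Dlx6, chr6:6865221-6865271 and chr6:6867041-6867079, plus strand: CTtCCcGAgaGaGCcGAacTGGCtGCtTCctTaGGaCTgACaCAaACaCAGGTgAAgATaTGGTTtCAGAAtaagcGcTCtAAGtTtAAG
Identity over this stretch lay between 74.4% for Dlx2 and Dlx6 and 82.2% for Dlx1 and Dlx2. Over the whole transcripts that carry these stretches, 1 per gene and 1423 to 4111 bases long with their untranslated parts, the longest run of identical bases shared by any 2 was 23 bases (Dlx2 and Dlx6), which is shorter than a sequencing read.

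The other members are single genes on other stretches of the genome. Lhx6 (ENSMUSG00000026890) lies at chr2:36081953-36105408 on the minus strand, Nkx2-1 (ENSMUSG00000001496) at chr12:56531958-56536908 on the minus strand and Gsx2 (ENSMUSG00000035946) at chr5:75075601-75077893 on the plus strand. Sst (ENSMUSG00000004366) lies at chr16:23889573-23890958 on the minus strand and Npy (ENSMUSG00000029819) at chr6:49822710-49829507 on the plus strand. A RefSeq promoter window (GRCm38.p6, 250 bases before to 50 after a transcript start) was held for 7 of the 9 members. The 250 bases upstream of Dlx2, Nkx2-1 and Sst are shown, since these genes stand for a homeobox gene that was low, the gene that was high and a peptide gene that was less low in the embryo described below.
Dlx2, chr2:71546755-71547004, minus strand: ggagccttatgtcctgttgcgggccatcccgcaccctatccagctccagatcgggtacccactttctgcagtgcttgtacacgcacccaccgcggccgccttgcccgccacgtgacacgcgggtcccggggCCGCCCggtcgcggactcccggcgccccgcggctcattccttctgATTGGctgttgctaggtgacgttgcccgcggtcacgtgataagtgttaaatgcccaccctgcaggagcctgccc
Nkx2-1, chr12:56536909-56537158, minus strand: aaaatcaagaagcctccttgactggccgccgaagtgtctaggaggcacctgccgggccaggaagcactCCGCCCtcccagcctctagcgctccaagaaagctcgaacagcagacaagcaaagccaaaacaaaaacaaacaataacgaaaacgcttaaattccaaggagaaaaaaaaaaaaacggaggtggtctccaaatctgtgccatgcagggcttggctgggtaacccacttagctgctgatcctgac
Sst, chr16:23890845-23891094, minus strand: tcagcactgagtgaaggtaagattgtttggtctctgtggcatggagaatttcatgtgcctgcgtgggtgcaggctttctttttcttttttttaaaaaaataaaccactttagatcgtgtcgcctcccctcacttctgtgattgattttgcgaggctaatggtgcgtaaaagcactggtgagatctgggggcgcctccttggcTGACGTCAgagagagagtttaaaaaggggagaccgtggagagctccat
Capitals mark matches to letters searched on both strands. In Dlx2 they are a GC box (GGGCGG, here on the opposite strand, 119 to 114 bases before the start) and a CCAAT box (CCAAT, opposite strand, 74 to 70 bases before it). In Nkx2-1 the match is a GC box on the opposite strand, 182 to 177 bases before the start. Sst carried the cAMP response element TGACGTCA 48 to 41 bases before the start, and no window of another member held these letters. Among all 32851 RefSeq windows of the same length, 1.79% held TGACGTCA, 35.7% held GGGCGG, 37.4% held CCAAT and 13.6% held TATAAA. The homeodomain core TAATTA was in 5.29% of all windows and in none of the windows of the members. A match describes the letters only, since binding was not measured.

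The depth was 61.7 to 91.8 in units of 1000000 counts per library. Bahd1 itself had 2, 10 and 6 counts in Bahd1-KO replicates 1, 2 and 3 and 1971 to 3470 counts in Bahd1-WT. The library labelled Bahd1-KO replicate 3 stood apart and went against its tissue label. Protein-coding genes took 53.5% of its counts and 97.8% to 98.4% in the others, while Gm42418, which overlaps ribosomal RNA sequence, took 22.6% (others, at most 0.394%) and the mitochondrial ribosomal RNAs 22.1% (others, at most 0.279%). The neuron marker Dcx was at 22.5 CPM (counts per 1000000 counts of the library) against 2063 to 3941 in the other 5 embryos. Not every neuron marker was low, since Snap25 was at 622 CPM against 170 to 298 CPM. Markers of lung epithelium summed to 1342 CPM there and to 52.9 to 114 CPM elsewhere. Nearly all of the sum elsewhere was Abca3, at 52.0 to 113 CPM, which was at 67.3 CPM in Bahd1-KO replicate 3. Each result below is therefore given with and without this library. Bahd1-KO replicate 1 differed in another way, with 9 hindbrain markers summing to 0.81 CPM against 9.56 to 24.7 CPM in the 3 Bahd1-WT embryos and Bahd1-KO replicate 2.

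Across the 5 embryos other than Bahd1-KO replicate 3, all 9 genes were expressed in each brain, and the peptide genes were the most abundant per unit of transcript length. On the scale of TPM (transcripts per 1000000, counts per exon length), the level of Sst was 300.2 ± 63.4 and that of Npy 230 ± 50.9 (SD, n = 5), and their ranges overlapped. Dlx1 followed at 115 ± 24.6 TPM, below every value of Npy and above every value of the next gene. Lhx6 (52.7 ± 10.5 TPM), Dlx2 (49.4 ± 14.4), Dlx5 (36.5 ± 10.2), Nkx2-1 (28.8 ± 7.37) and Dlx6 (26.8 ± 2.98) came next, and each overlapped its neighbour in this order. Gsx2, a progenitor gene, was the lowest at 3.74 ± 1.06 TPM and did not overlap Dlx6. In the library of Bahd1-KO replicate 3 the order was different, with Nkx2-1 highest at 90.1 TPM, followed by Sst at 24.9 TPM and Npy at 15.7 TPM.

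In the comparison of Bahd1-KO with Bahd1-WT, none of the 9 genes passed the test, and the values of the 2 genotypes overlapped for all 9. In Bahd1-KO replicate 3, 8 of the 9 genes were below all other embryos and Nkx2-1 was above them all. Without that library the fitted differences shrank to between a log2 fold change of -0.32 for Dlx5 and 0.19 for Nkx2-1. The test was edgeR's quasi-likelihood test with Benjamini-Hochberg adjustment over all genes. With all 6 embryos it called 1 of 24739 genes tested (0.00404%), which was Bahd1 itself at an adjusted p of 0.0462, near the threshold. Without Bahd1-KO replicate 3 it called 4 of 23334 (0.0171%), none of them a member. At an unadjusted p under 0.05 no member passed in either fit, against 4.67% of all genes tested with 6 embryos and 1.48% without that library. Groups of CPM values that did not overlap were found for 6.06% of all genes with 6 embryos and 11.3% without Bahd1-KO replicate 3, and for 0 of the 9 members in both cases. The brains were measured in bulk, so fewer cells of a type and less RNA per cell cannot be told apart.

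**Figure D1:**
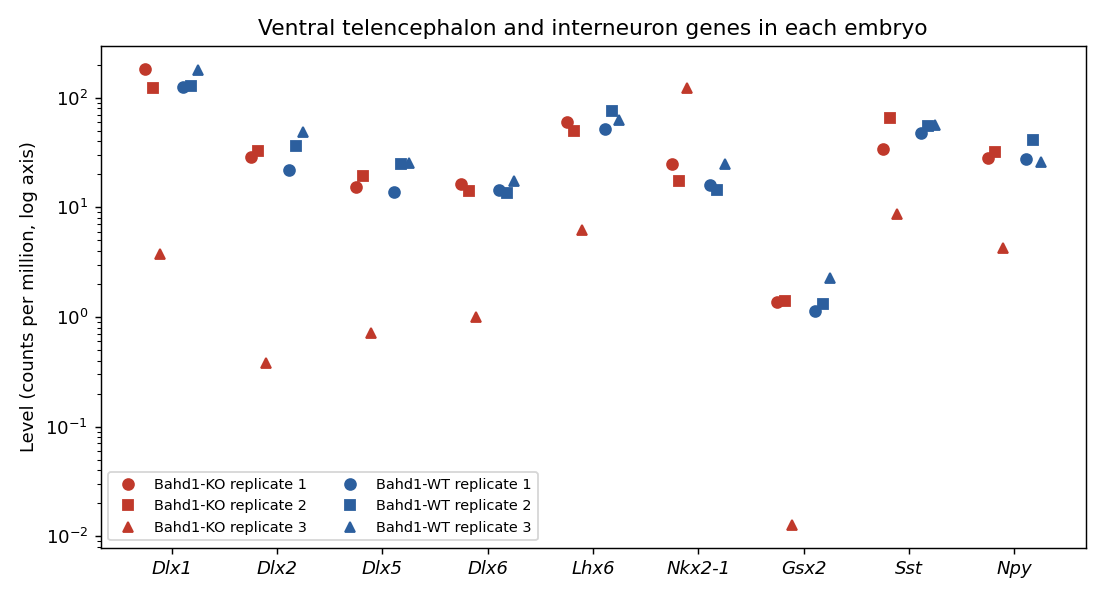
Level of each of the 9 genes in each embryo, in CPM on a log axis, with Bahd1-KO embryos in red and Bahd1-WT embryos in blue and 1 symbol per replicate. Bahd1-KO replicate 3 (red triangle) lies below all other embryos for 8 genes and above them for Nkx2-1 at 123 CPM, and the other 5 embryos are mixed by genotype.

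Gsx2, the progenitor gene of the lateral eminence, was at 1.38, 1.39 and 0.0127 CPM in Bahd1-KO replicates 1 to 3 and at 1.12, 1.30 and 2.25 CPM in Bahd1-WT. The value of Bahd1-KO replicate 3 rests on 1 count, and the other Bahd1-KO embryos lie within the Bahd1-WT range. The log2 fold change was -0.74 (SE 1.06) with an edgeR adjusted p of 0.815, and -0.18 without that library (95% interval -1.001 to 0.635). The level in that library was 1.13% of the lowest other embryo, with an exact binomial 95% interval of 0.0283% to 6.43% that covers counting error only.

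Nkx2-1, the medial eminence gene, was at 24.9, 17.4 and 123 CPM in Bahd1-KO and at 16.0, 14.4 and 24.6 CPM in Bahd1-WT. A single embryo carried the difference, since Bahd1-KO replicate 3 was 4.94 times the highest other embryo and the other 2 Bahd1-KO embryos fell among or beside the Bahd1-WT values. The log2 fold change with all embryos was 2.11 (SE 0.90), with an unadjusted p of 0.0514 and an adjusted p of 0.696 in edgeR. Without Bahd1-KO replicate 3 it was 0.19 (95% interval -0.51 to 0.89, adjusted p = 0.981). Levels above all other embryos were found in this library for 25.9% of all genes tested.

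Dlx1 was at 184, 122 and 3.79 CPM in Bahd1-KO and at 126, 128 and 179 CPM in Bahd1-WT. Apart from the low replicate 3, the Bahd1-KO values spanned the Bahd1-WT range, with Bahd1-KO replicate 1 the highest of all. Its log2 fold change of -0.47 (SE 0.94, edgeR adjusted p = 0.868) turned to 0.07 without Bahd1-KO replicate 3 (95% interval -0.51 to 0.64).

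Dlx2, the neighbour of Dlx1, was at 28.9, 32.5 and 0.38 CPM in Bahd1-KO and at 21.7, 36.3 and 48.7 CPM in Bahd1-WT. Both Bahd1-KO embryos outside replicate 3 again lay inside the Bahd1-WT range. The log2 fold change was -0.78 (SE 1.07, edgeR adjusted p = 0.806) and -0.22 without that library (95% interval -0.96 to 0.52).

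Dlx5 and Dlx6, which the DLX1 and DLX2 proteins promote, showed the same layout. Dlx5 was at 15.2, 19.2 and 0.709 CPM in Bahd1-KO and at 13.7, 24.8 and 25.5 CPM in Bahd1-WT. Its log2 fold change of -0.85 (SE 0.85, edgeR adjusted p = 0.737) became -0.32 without Bahd1-KO replicate 3 (95% interval -1.04 to 0.39). Dlx6 was at 16.4, 14.1 and 0.988 CPM in Bahd1-KO and at 14.3, 13.5 and 17.5 CPM in Bahd1-WT. Its values were the most even of the 9 genes over the other 5 embryos, with the highest 1.29 times the lowest. The log2 fold change of Dlx6 was -0.51 (SE 0.73, edgeR adjusted p = 0.816) with all embryos and -0.01 without Bahd1-KO replicate 3 (95% interval -0.56 to 0.54).

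Lhx6, expressed in interneurons after they leave the cell cycle, was at 59.7, 49.8 and 6.22 CPM in Bahd1-KO and at 52.0, 76.4 and 62.6 CPM in Bahd1-WT. The 2 higher Bahd1-KO embryos sat in the lower part of the pooled range, 1 of them below all Bahd1-WT values. Its log2 fold change was -0.68 (SE 0.59, edgeR adjusted p = 0.711), and -0.24 without Bahd1-KO replicate 3 (95% interval -0.76 to 0.29).

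The peptide genes were less depressed in Bahd1-KO replicate 3 than the Dlx genes. Sst was at 34.2, 65.1 and 8.65 CPM in Bahd1-KO and at 47.5, 55.7 and 56.0 CPM in Bahd1-WT, so that the Bahd1-KO embryos held both the highest and the lowest values. Its log2 fold change was -0.51 (SE 0.50, edgeR adjusted p = 0.737) and -0.12 without that library (95% interval -0.78 to 0.55). Npy was at 28.0, 31.9 and 4.29 CPM in Bahd1-KO and at 27.5, 41.2 and 25.7 CPM in Bahd1-WT. Both Bahd1-KO embryos outside replicate 3 were within the Bahd1-WT range, and the log2 fold change moved from -0.51 (SE 0.55, edgeR adjusted p = 0.757) to -0.09 (95% interval -0.72 to 0.53).

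**Figure D2:**
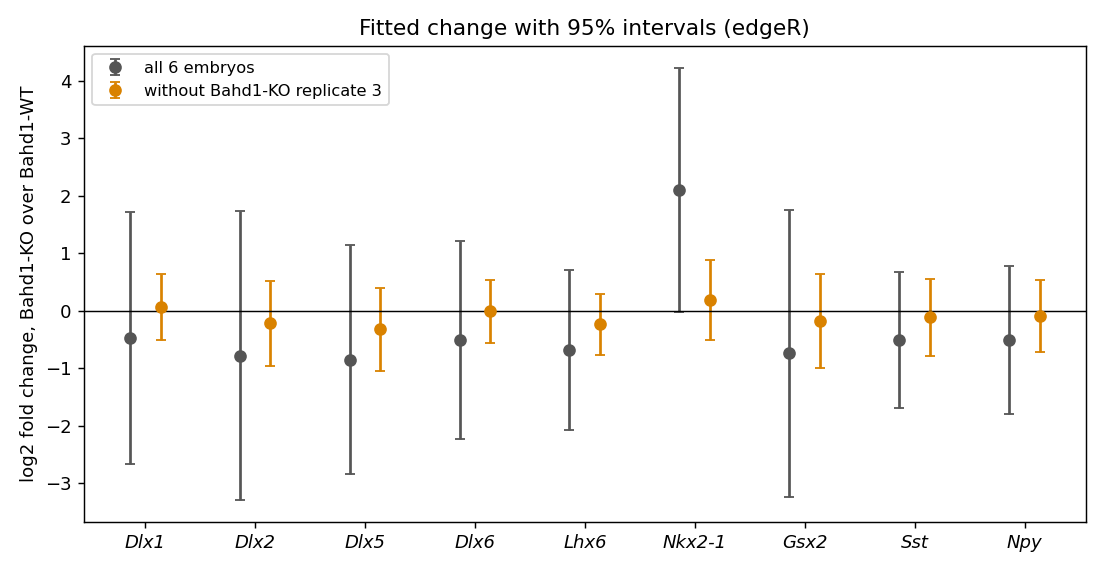
Fitted log2 fold change of Bahd1-KO over Bahd1-WT for each gene with its 95% interval from edgeR, with all 6 embryos (grey) and without Bahd1-KO replicate 3 (orange). All intervals include 0, and those without that library are narrower, the widest running from -1.001 to 0.635 for Gsx2.

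Over the list, 8 of 9 fitted values were below 0 with all embryos, where 46.2% of all genes tested were, and the median was -0.51 against 0.06 for all genes. Without Bahd1-KO replicate 3, 7 of 9 were below 0 against 50.8% of all genes, with a median of -0.12 against -0.01. The intervals without that library bound the change of each gene. For Dlx1 they ran from 0.702-fold to 1.56-fold of Bahd1-WT, and for Dlx5 from 0.486-fold to 1.31-fold, so that moderate changes in either direction were not detectable with these embryos.

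The depth of the fall in Bahd1-KO replicate 3 differed among the members. Relative to the lowest of the other 5 embryos, Dlx2 was at 1.75%, Dlx1 at 3.10%, Dlx5 at 5.18% and Dlx6 at 7.29% of its CPM. Together with Gsx2, these 5 of 9 genes were under 10%, as were 4.47% of all genes tested and 2.35% of the 13849 genes with at least 1 CPM in each of the other embryos. Lhx6 was at 12.5%, Npy at 16.7% and Sst at 25.3%. Being below all other embryos was itself common in this library, at 52.7% of all genes tested. Because ribosomal RNAs took much of its counts, the values were also scaled to the protein-coding counts alone. On that scale the same 8 genes remained below all other embryos, from 2.07% of the lowest other embryo for Gsx2 to 46.3% for Sst, with 4 of 9 under 10%, and Nkx2-1 was 9.04 times the highest other embryo. Of all genes tested, 29.7% were below all other embryos on that scale, 3.38% were under 10% and 43.7% were above all others.

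Markers of other regions and tissues moved in that library together with the members. Of 9 dorsal telencephalon markers, 8 were below all other embryos, and their sum was 133 CPM against 1100 to 1570 CPM. Of 10 general neuron markers, 9 were below all other embryos, with a sum of 1741 CPM against 9235 to 10883 CPM. On the protein-coding scale 8 of the 9 dorsal and 6 of the 10 neuron markers were below all others. Slc17a7, the other dorsal marker, and the neuron marker Snap25 were above all others on both scales. The neuron markers Nefl, Syt1 and Rbfox3 were within the range of the others per protein-coding counts. Slc17a7, Snap25, Nefl, Syt1 and Rbfox3 were named after their values were seen. Of all genes tested, 52.7% were below all others in CPM and 29.7% on the protein-coding scale. Lung and thyroid are organs whose epithelium expresses Nkx2-1. Of 10 lung markers, 8 were above all other embryos in CPM, where 25.9% of all genes tested were. They were led by Sftpc (566 CPM), Lamp3 (236 CPM) and Scgb3a2 (206 CPM), none of which exceeded 2.94 CPM elsewhere. The 5 thyroid markers summed to 95.3 CPM against 4.70 to 6.54 CPM, with thyroglobulin (Tg) taking 85.9 CPM of that sum. The thyroid transcription factor gene Pax8 was at 1.81 CPM against 0.194 to 1.66 CPM, Slc5a5 at 1.67 CPM was within the range of 1.09 to 2.49 CPM, and the receptor gene Tshr at 1.04 CPM was below the range of 1.61 to 3.05 CPM. The 12 hypothalamus markers, from the other main brain site of Nkx2-1, summed to 5.37 CPM against 28.7 to 36.3 CPM. In CPM 8 of these 12 were below all others. Per protein-coding counts 6 were below, 4 were within range and 2 were above. The part of these tissues in the levels of the 9 genes was not tested.

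**Figure D3:**
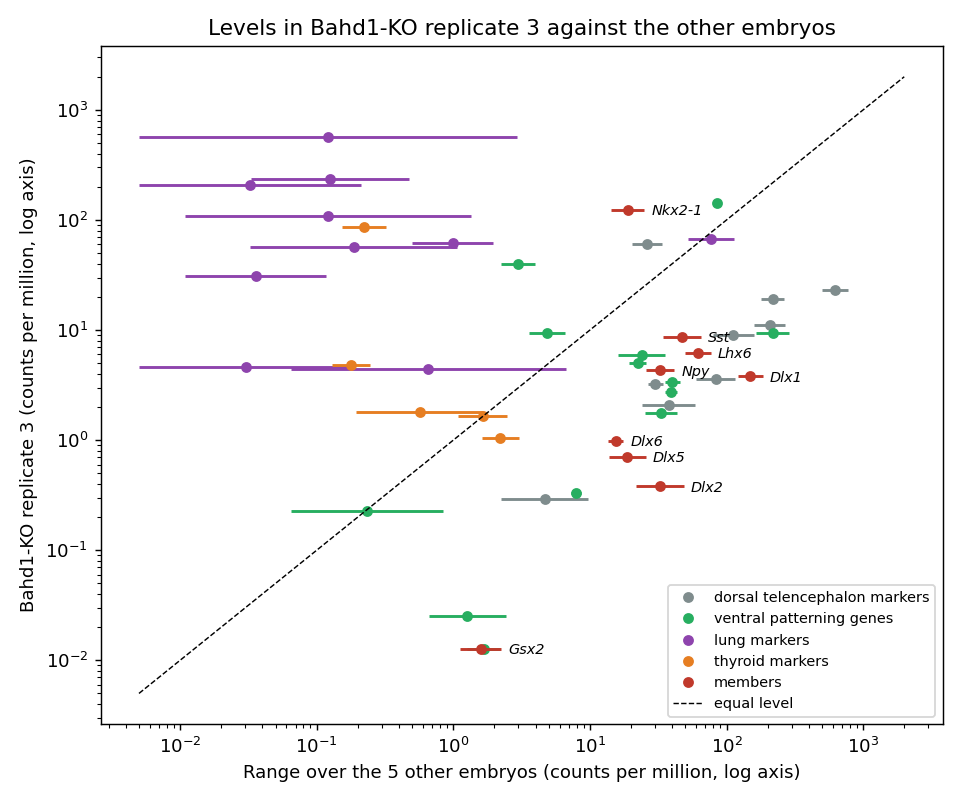
Level in Bahd1-KO replicate 3 (vertical axis) against the range over the 5 other embryos (horizontal line, with a point at its geometric middle), in CPM on log axes, for the 9 genes and 4 marker lists, with values of 0 drawn at 0.005. Nkx2-1 lies above the line of equal level, as do most lung markers and the thyroid marker Tg at 85.9 CPM. It lies to the right of Tg, with 14.4 to 24.9 CPM in the other embryos against 0.153 to 0.324 CPM. The other 8 genes lie below the line with most dorsal telencephalon markers.

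The non-coding RNAs of the Dlx loci were low where the Dlx genes were low. The antisense RNA Dlx1as was at 23.3, 18.1 and 0.697 CPM in Bahd1-KO and at 19.3, 19.6 and 27.03 CPM in Bahd1-WT. Dlx6os1, the non-coding RNA of the Dlx5 and Dlx6 locus, was at 203, 98.5 and 7.55 CPM in Bahd1-KO and at 126, 91.7 and 107 CPM in Bahd1-WT. In Bahd1-KO replicate 3 they were at 3.84% and 8.23% of the lowest other embryo. Dlx3 and Dlx4, family members used mainly outside the brain, went the other way at very low levels. In Bahd1-KO replicate 3 Dlx4 was at 0.469 CPM against 0.0162 to 0.135 CPM, and Dlx3 at 0.165 CPM against 0.0368 to 0.157 CPM. Per unit of length, Dlx1 exceeded Dlx2 in every embryo, by 1.87 to 3.36 times in the 5 other embryos and by 5.27 times in Bahd1-KO replicate 3. Dlx5 and Dlx6 were nearer to each other, with ratios of 0.973 to 1.92 in the 5 and 0.753 in that library.

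The wider ventral programme gave no gene that passed the test in either fit. All 13 ventral patterning genes were tested. Fitted values below 0 were found for 10 with all embryos and for 8 without Bahd1-KO replicate 3. Of all genes tested, 46.2% and 50.8% were below 0 in these 2 fits. The median of the list was -0.34, and -0.01 without Bahd1-KO replicate 3. In that library 7 of the 13 were under 10% of the lowest other embryo in CPM, as were 4.47% of all genes tested. On the protein-coding scale 3 of 13 were, as were 3.38% of all genes. Below all others were 9 of 13 on both scales, against 52.7% and 29.7% of all genes. Among the 9 was the forebrain factor Six3 at 2.71 CPM (others, 35.2 to 43.6). The hedgehog genes went the other way. The receptor gene Ptch1 was at 143 CPM there against 82.0 to 88.3 CPM, and the ligand gene Shh, which induces Nkx2-1 in the forebrain and is also expressed in lung epithelium, was at 39.7 CPM against 2.24 to 3.99 CPM. Shh was named after its values were seen.

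Of 16 transcription factors of interneuron lineages, 12 had fitted values below 0 with all embryos and 5 without Bahd1-KO replicate 3, with medians of -0.20 and 0.10. Of all genes tested, 46.2% and 50.8% had fitted values below 0 in these 2 fits. In CPM, 14 of the 16 were below all others in that library, where 52.7% of all genes tested were, and 1 was above. On the protein-coding scale 11 of 16 were below, where 29.7% of all genes were, 2 were within range and 3 were above. Etv1 was above on that scale (157 against 47.2 to 93.0), and Maf was above on both scales (97.8 CPM against 53.0 to 72.9 CPM). Etv1 and Maf were named after their values were seen. Nr2f1, a factor of the caudal eminence, was low on both, at 8.78 CPM against 114 to 165 CPM and at 14.2% of the lowest other embryo on the protein-coding scale. Its relative Nr2f2, which is also expressed in many tissues outside the brain, was below the others in CPM (115 against 139 to 186) but above them per protein-coding counts (216 against 141 to 190). Zeb2, needed for interneuron specification, was below the others in CPM (326 against 351 to 615) and within their range per protein-coding counts (610.02 against 357 to 629).

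Of 14 striatal genes, 9 had fitted values below 0 with all embryos, where 46.2% of all genes tested had. Without Bahd1-KO replicate 3, 5 of the 14 were below 0, against 50.8% of all genes. The median of the list was -0.12 with all embryos and became 0.04 without Bahd1-KO replicate 3. Meis2 was low in that library on both scales, at 83.9 CPM against 487 to 598 CPM and at 31.7% of the lowest other embryo per protein-coding counts. Foxp2 was below the others in CPM (117 against 159 to 235) but within their range per protein-coding counts (218 against 162 to 239).

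The GABA synthesis and transport genes depended on the scale. All 5 were below the other embryos in CPM in Bahd1-KO replicate 3, and 3 of 5 were on the protein-coding scale, with none under 10% on either. Of all genes tested, 52.7% and 29.7% were below all others on these scales. Gad1, a glutamate decarboxylase gene, was at 44.9% of the lowest other embryo in CPM and at 82.5% per protein-coding counts. Gad2, the other glutamate decarboxylase gene, was at 67.9% in CPM but within the range of the others per protein-coding counts (168 against 135 to 206), and Abat, which breaks down GABA, was above them there (166 against 115 to 145). The list had a median of -0.19 with all embryos and -0.07 without that library.

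Of 16 subtype and migration genes, 10 were below all others in that library in CPM, where 52.7% of all genes were, and 9 of 16 on the protein-coding scale, where 29.7% were. Reln was at 15.4% and Nrp2 at 29.8% of the lowest other embryo in CPM, and at 28.2% and 54.8% per protein-coding counts. The medians of the list were -0.16 and -0.11. Among 8 receptor genes for somatostatin and neuropeptide Y, 5 were below and 1 above all others in CPM. On the protein-coding scale 4 were below, 2 within range and 2 above. Of all genes tested, 52.7% and 29.7% were below on these scales, and 25.9% and 43.7% above. Sstr2 was low, at 2.04 CPM against 17.9 to 34.2 CPM. Npy2r was within range at 4.26 CPM, and above the others per protein-coding counts (7.96 against 2.95 to 5.40). The medians of the receptor list were -0.25 and -0.29.

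The spread among the 5 other embryos also varied by gene. The highest was 2.25 times the lowest for Dlx2, 2.001 times for Gsx2, 1.90 times for Sst and 1.87 times for Dlx5, and it was 1.503 times for Dlx1. For Dlx1 and Nkx2-1 the top value belonged to Bahd1-KO replicate 1, at 184 and 24.9 CPM. Bahd1-WT replicate 3 was close, at 179 and 24.6 CPM. No other member had its top value in Bahd1-KO replicate 1, and Sst had its lowest of the 5 there, at 34.2 CPM. That embryo had few hindbrain counts. It also had the cortical neuron marker Neurod6 at its highest, at 781 CPM. The 3 Bahd1-WT embryos had 503 to 559 CPM of Neurod6, and Bahd1-KO replicate 2 had 506 CPM. The part of this difference in regional markers was not tested.

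The genes most like the mean of the 4 Dlx genes over the 6 embryos, by Pearson correlation of log2 CPM among 13669 protein-coding genes, were Pmpca, Masp1, Lhx8, Bzw2 and Zfp784, each with r = 0.999. These values describe mainly the contrast between Bahd1-KO replicate 3 and the rest, with library and depth shared by all genes. Lhx8, a medial eminence gene of cholinergic and interneuron lineages, was at 0.152 CPM there against 6.50 to 11.6 CPM. Among the members, Gsx2 ranked 20 with r = 0.998, Lhx6 had r = 0.984, Npy 0.952 and Sst 0.929, and Nkx2-1 had r = -0.953. Over the 5 other embryos the 5 leading genes were others, Zw10, Hhat, Tamm41, Hax1 and Arih2, and the members had r = 0.915 for Gsx2, 0.53 for Nkx2-1, 0.47 for Lhx6, 0.0353 for Sst and -0.215 for Npy.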

How the data were processed

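Whole-brain RNA of 3 Bahd1-KO and 3 Bahd1-WT embryos was sequenced after poly(A) selection with a stranded kit. The authors deposited 1 table of raw counts per gene. According to the submitters' processing notes and the study's methods, reads were trimmed with cutadapt 1.11, aligned to GRCm38 (STAR 2.5.0a is named in the notes, and the methods also name another aligner) and counted by gene with featureCounts 1.4.6-p3.

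The 9 members and all gene lists were chosen with earlier results of these data known. Samples were grouped by the labelled genotype. Nothing in the labels ties an embryo to a litter. Genes with at least 10 counts in total were scaled by TMM and tested with edgeR 4.0.16 (R 4.3.3, quasi-likelihood, genotype only, Benjamini-Hochberg threshold 0.05). Intervals are 95% intervals from the SE. CPM used total counts and TPM used the exon lengths of GENCODE M21, which matched 53706 rows. Named list genes were the 4 with the highest mean CPM in each list of non-members, others being named where the text says so and some not being reported here. Likeness was Pearson correlation of log2 CPM with a prior count of 2 among protein-coding genes with a mean of at least 1 CPM. Alternatives used DESeq2 1.42.0, limma 3.58.1 (voom with quality weights), other scalings and filters, a replicate block and leaving out each embryo. Scaling to protein-coding counts was added after the data were seen. The edgeR, DESeq2 and voom fits were tested on simulated data.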

Additional observations from a re-analysis of the deposited data

How the results depend on the processing

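Under 20 alternatives, none of the 9 genes passed the threshold. The lowest adjusted p of a member was 0.235, for Nkx2-1 without Bahd1-KO replicate 2, and 172 of 179 fitted values kept their direction. Leaving out 1 embryo gave Dlx1 values of -1.20 (Bahd1-KO replicate 1) to 0.066 (Bahd1-KO replicate 3). Without Bahd1-KO replicate 3, DESeq2 gave 0.0674 and scaling to neuron markers 0.0487. With the replicate number as a block and without that embryo, Dlx1 was 0.19, Dlx2 0.0829, Dlx6 0.0816 and Gsx2 0.15, and the cause was not tested. Leaving out 1 embryo moved the median of the members between -1.09 and -0.12, the latter without Bahd1-KO replicate 3.

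The count of genes called was 1 in edgeR, Bahd1 itself. A count of 0 below therefore means that even Bahd1, the knocked-out gene, was not called. The count was 0 (with 452, 2827 and 1094 genes at an unadjusted p under 0.05) with at least 10 counts in every embryo, with scaling to neuron markers, and without ribosomal and mitochondrial RNA genes. The first of these filters left Bahd1 out of the test. It was also 0 (366) with scaling to neuron markers without Bahd1-KO replicate 3. DESeq2 called 8 genes, with 1 list gene, Hoxb5, and 11 without that embryo, and voom with quality weights called 6. Leaving out 1 embryo gave 0 to 4, with 4 without Bahd1-KO replicate 3 and 0 without any single other embryo (154 to 4878 at an unadjusted p under 0.05). The replicate block gave 0 (517 at an unadjusted p under 0.05), and 16 without Bahd1-KO replicate 3, with 1 list gene, Sftpc. After the mean of each genotype was removed, same-numbered embryos correlated at 0.12, 0.18 and -0.09, and differently numbered ones at -0.36 to 0.25. Bahd1-KO replicate 3 entered that mean, so these values cannot tell whether the embryos were paired. Scaling to neuron markers moved the median of all genes to 0.89, upper-quartile factors to 0.17 and total counts to -0.11. With 3 embryos per genotype and 1 unlike the rest, changes of the size of the intervals above were not detectable.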

Other observations

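Genes next to Nkx2-1 on chromosome 12 had the same layout as Nkx2-1. They were looked at after the values of Nkx2-1 were seen. Sfta3-ps (chr12:56488321-56529427, GRCm38, minus strand), a transcript named for a surfactant-associated gene, gave 692, 466 and 12741 counts in Bahd1-KO against 528, 472 and 674 counts in Bahd1-WT. In Bahd1-KO replicate 3 it reached 161 CPM against 5.75 to 11.2 CPM in the other 5 embryos. Gm26973, annotated as antisense to Nkx2-1, gave 10, 7 and 156 counts in Bahd1-KO against 7, 9 and 8 counts in Bahd1-WT. The intergenic RNA C87198 had 26 counts in Bahd1-KO replicate 3 and at most 1 in any other embryo. None passed the edgeR test (adjusted p = 0.696 for these 3 genes with all embryos), and without Bahd1-KO replicate 3 the log2 fold changes of Sfta3-ps and Gm26973 were 0.44 and 0.43.

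Bahd1-KO replicate 2 also held more counts of the surfactant gene Sftpc than the 4 embryos other than Bahd1-KO replicate 3, at 2.94 CPM against at most 0.121 CPM, while its Nkx2-1 level of 17.4 CPM lay within their range.

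Of the 16 interneuron subtype and migration genes, 4 were above and 10 below all other embryos in CPM in Bahd1-KO replicate 3. Of all genes tested, 25.9% were above and 52.7% below, so these counts are near those of the library as a whole. Sst and Npy were also below. Among the 4 genes above, Pvalb, a calcium-binding protein gene, was at 19.1 CPM there against 0.227 to 2.52 CPM elsewhere. Vip, a peptide gene, was at 3.85 CPM against 0.081 to 0.599 CPM. Crh, the corticotropin-releasing hormone gene, was at 16.0 CPM against 0.785 to 1.77 CPM. Lamp5, the other gene above, was at 12.3 CPM against 0.956 to 8.29 CPM. Pvalb, Vip and Crh are also expressed outside the brain, and the source of their counts was not tested. All 4 genes were named after their values were seen.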
